A study of Mus musculus with 12 samples.

Results

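Nestin, vimentin and the other intermediate filament genes of neural cells were described across 12 one-colour arrays of mouse neural progenitor cells. All probes whose name, older name or accession belonged to Nes, Vim, Gfap, Nefl, Nefm, Nefh or Ina were taken, which gave 13 of the array's 41174 probes and 7 of its 27666 gene names. Of these 13 probes, 8 were well above background on at least 1 array and 3 were well above background on all 12. Well above background is the image software's own flag for a spot brighter than its surroundings.

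The cells were of the 129/Ola strain. Each of 10 cultures received a retroviral vector, pMXs-IRESNeo, with the open reading frame of 1 transcription factor: Crebzf, Esx1, Etv6, Gatad2b, Hmga2, Nfxl1, Pax6, Pdx1, Sox11 or Zfp451. One control culture received the same vector with EGFP, a green fluorescent protein, and the other is labelled mock. In the cultures given a vector, G418 was added at 24 h, about 95% of cells expressed the insert, and RNA was taken at 72 h. The antibiotic kills cells that lack the vector's resistance gene. The sources used here do not give how the mock culture was treated or whether it met G418. The series title speaks of interfering and non-interfering factors, but the labels do not say which factor is which, so no comparison between these kinds was made. All groups share the strain and the labelled cell type. Each array is a bulk sample, in which fewer cells of a type and less RNA per cell cannot be told apart.

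Intermediate filaments are the rope-like part of the cytoskeleton, built from a family of related rod proteins. In the developing nervous system nestin and vimentin assemble together in dividing progenitors. Neurons then take up internexin and the neurofilament proteins, while astrocytes add glial fibrillary acidic protein. For this reason the genes are widely used to mark stages of neural differentiation.

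With 1 array in each group there are no replicates, and every comparison is a description without a p-value. Values are levels, the log2 of the processed signal minus the log2 of that array's 75th percentile, so that a level of 0 equals the 75th percentile. That percentile lay between 823.5 and 1026 signal units, 0 spots were saturated, and the share of probes well above background was 62.5% to 69.1%. The EGFP and mock arrays differed by 0.07 in the median (absolute log2 difference), and 60 of the 24409 probes well above background on all 12 arrays differed at least 2-fold. A probe was called higher for a factor when its level exceeded that of each control by 2-fold or more, and lower when it fell short of each by 2-fold or more. Since all 10 factors share these 2 controls, an error in one of them enters all 10 comparisons. The arrays lay on 3 slides, with EGFP, mock, Hmga2 and Pax6 on slide 1, Gatad2b, Etv6, Nfxl1 and Esx1 on slide 2, and Crebzf, Pdx1, Sox11 and Zfp451 on slide 3.

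The arrays of Pax6, Esx1 and the 4 factors on slide 3 stood apart from the rest across the whole transcriptome. From 6.1% to 9.87% of all tested probes were called in each direction on these 6 arrays, against 0.258% to 0.969% on the Hmga2, Gatad2b, Etv6 and Nfxl1 arrays. They are named here as arrays and are not a group of the study. Their median probe also lay lower, by -0.15 to -0.06 in log2 against the control mean. All of slide 3 belongs to them, so for its 4 factors the slide and the factor cannot be told apart. Pax6 shared its slide with both controls and Esx1 shared its slide with 3 of the other factor arrays, so these 2 arrays give comparisons within a slide.

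The cell type label was checked against its markers. Of 9 markers of neural progenitors, between 7 and 9 were well above background on each array. Sox2, a transcription factor of neural stem cells, was measured on all 12 arrays at levels of 0.24 to 1.21. Least often measured were Fabp7, well above background on 5 arrays, and Hes5, on 10. Between 7 and 8 of 8 fibroblast markers were also well above background on every array, among them the collagen gene Col1a1 on all 12.

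Promoter sequences are shown for Nes, which differed most clearly between arrays among the bright members, for Vim, which was bright on all 12, and for Gfap, which was near background. The sequences are the 250 bases before the start site from RefSeq (GRCm38.p6), written 5′ to 3′ on the gene's strand. Capitals mark TATAAA, the core letters of a TATA box, and GGGCGG, the core of a GC box. Both were searched on both strands, so that a GC box on the opposite strand reads CCGCCC, and the motifs do not overlap each other. The Nes window lies at chr3:87970843-87971092 (+), the Vim window at chr2:13574061-13574310 (+) and the Gfap window at chr11:102897201-102897450 (-).
Nes: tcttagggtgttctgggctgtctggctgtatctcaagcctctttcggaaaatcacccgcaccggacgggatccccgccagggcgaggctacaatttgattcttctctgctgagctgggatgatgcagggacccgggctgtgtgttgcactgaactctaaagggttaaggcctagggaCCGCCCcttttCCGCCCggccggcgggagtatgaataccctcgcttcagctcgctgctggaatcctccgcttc
Vim: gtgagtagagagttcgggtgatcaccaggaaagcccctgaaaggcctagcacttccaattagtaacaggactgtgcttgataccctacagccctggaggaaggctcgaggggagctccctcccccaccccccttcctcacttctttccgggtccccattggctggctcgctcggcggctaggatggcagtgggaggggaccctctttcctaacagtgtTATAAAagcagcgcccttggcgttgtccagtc
Gfap: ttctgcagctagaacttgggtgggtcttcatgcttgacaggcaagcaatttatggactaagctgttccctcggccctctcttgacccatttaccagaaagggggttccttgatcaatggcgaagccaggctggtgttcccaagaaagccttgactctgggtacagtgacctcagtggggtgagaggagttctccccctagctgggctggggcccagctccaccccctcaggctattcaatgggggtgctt

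The Nes window held 2 GC boxes, which begin at positions -73 and -62 from the start site, and no TATAAA. The Vim window held 1 TATAAA at -32 and no GC box. It also held CCAAT, searched on both strands, at -196 and -94. None of these motifs was found in the Gfap window. Over 32851 promoter windows of the same length, 12.4% held the TATA box letters, 32.7% held GGGCGG and 33.8% held CCAAT. The windows contained 15 CpG dinucleotides for Nes, 8 for Vim and 2 for Gfap, beside a median of 6 over all windows. The window of Ina held 25, with a GC content of 70.8% against a median of 52.4%. Windows of Nefl, Nefm and Nefh were not used here. A match of letters describes the window and is not evidence of binding.

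Nes encodes nestin, the very long filament protein by which neural stem and progenitor cells are most often recognised. Nes RNA was lower on the arrays of Pax6, Esx1, Crebzf, Pdx1, Sox11 and Zfp451, by 2.11-fold to 2.85-fold against the mean of both controls. Its probe, A_51_P452323, is placed at chr3:88094187-88094246 (mm7, + strand) and was printed 10 times on each array. The level was 3.34 on the EGFP array and 3.52 on the mock array. It was 3.53 on Hmga2, 3.61 on Gatad2b, 3.52 on Etv6 and 3.58 on Nfxl1. These 4 factor arrays thus lay at or just above the controls. The level was 1.92 on Pax6, 2.06 on Esx1, 2.33 on Crebzf, 2.35 on Pdx1, 2.33 on Sox11 and 2.30 on Zfp451. The highest of the low arrays lay 0.99 in log2 below the lowest of the others. These arrays stood apart across the whole transcriptome, and the share of all probes with such a gap was not counted.

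**Figure D1:**
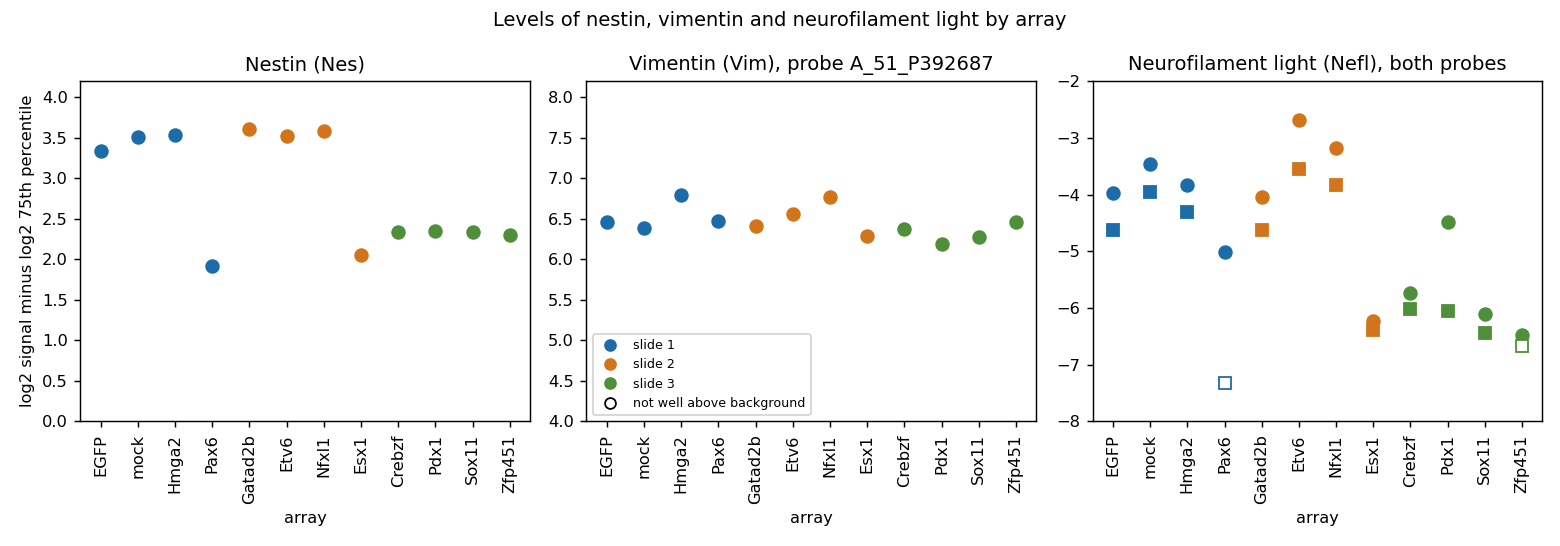
Levels (log2 signal minus the log2 75th percentile of the array, y axis, with a different range in each panel) of Nes, of the bright Vim probe and of both Nefl probes (circles A_51_P339934, squares A_51_P168646) on 12 arrays (x axis), coloured by slide, with open symbols where the spot was not well above background. Nes runs from 1.92 to 3.61 and falls into a high and a low set of arrays, Vim stays between 6.19 and 6.79, and Nefl is low on the arrays where Nes is low.

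The repeated spots of Nes show the technical error within an array. All 120 spots were well above background, and the SD over the 10 spots of an array was 0.04 to 0.07 in log2. The lowest single spot of the high arrays, on EGFP, was at 3.27, and the highest single spot of the low arrays, on Crebzf, was at 2.47. The difference between these arrays was therefore larger than the spread between spots. Spots of one array share one RNA sample, so their SD holds no difference between cultures.

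**Figure D2:**
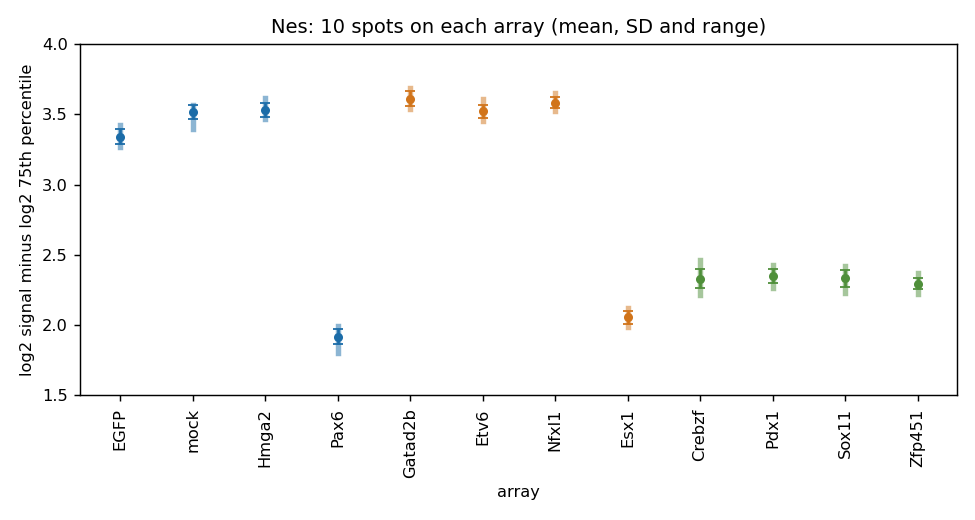
Nes level (log2 signal minus the log2 75th percentile of the array, y axis) on each of 12 arrays (x axis), coloured by slide as blue for slide 1, orange for slide 2 and green for slide 3. Points are the mean of 10 spots, error bars the SD over spots and pale bars the range from the lowest to the highest spot, and the highest spot of the 6 low arrays, 2.47, lies below the lowest spot of the other 6, 3.27.

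Against the control mean, the log2 difference of Nes was -1.51 on Pax6, -1.37 on Esx1, -1.10 on Crebzf, -1.08 on Pdx1, -1.10 on Sox11 and -1.13 on Zfp451. Nes was called lower on 5 of these arrays, on each of which 6.1% to 7.62% of all tested probes were called lower. On Pdx1 it missed the call, since it lay -0.99 from EGFP, while Crebzf and Sox11 lay -1.01 from EGFP and were called. Values this close to the threshold do not separate Pdx1 from its neighbours on slide 3, whose levels span only 2.30 to 2.35. On Hmga2, Gatad2b, Etv6 and Nfxl1 the difference from the control mean was 0.09 to 0.18, about the size of the difference between EGFP and mock, -0.17.

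Within slide 1, Nes on the Pax6 array lay -1.61 to -1.42 from each of the other 3 arrays. Within slide 2, Nes on the Esx1 array lay -1.56 to -1.47 from each of the other 3. The size on Esx1 was thus as large within slide 2 as against the controls. Both controls lie on slide 1, so for Pax6 the comparison within its slide is the control comparison with Hmga2 added. Less the median shift of all probes, the differences on the 6 arrays were -1.45 to -0.93. Under quantile normalization the calls on Crebzf, Sox11 and Zfp451 were lost, at -0.91, -0.90 and -0.93. With a normexp background correction those on Crebzf and Sox11 were lost, at -1.08 and -1.07, since EGFP then lay less than 2-fold above them.

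Other markers of the progenitor state moved in both directions. The summed linear level of the 9 progenitor markers was 5.12 to 5.36 on the controls and 7.93 to 10.8 on the 6 arrays where Nes was low, on a scale where the 75th percentile is 1. The median difference of the 9 markers ran from -0.18 to 0.05 over the 6 arrays, so the higher sum was not shared by most markers. Slc1a3 was 1.66-fold to 2.58-fold higher over them and was called on Pax6. Sox9, a factor of glial and progenitor cells, was called higher on 5 of these arrays, and Sox2 was called on none, with differences of 0.03 to 0.72. Msi1, an RNA-binding protein of progenitors, was called lower on Zfp451 and differed by -1.11 to -0.53 over the 6 arrays. On Crebzf Sox1 was called lower and Fabp7 higher, and Prom1 was not called, at -0.61 to -0.32 over the 6. The summed level of the 8 fibroblast markers was 98.1 to 105 on the controls and 227 to 243 on the 6 arrays. It was 94.8 to 106 on Hmga2, Gatad2b, Etv6 and Nfxl1. The part of fibroblast-marker RNA in the Nes result was not tested.

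Vim encodes vimentin, a filament protein with which nestin assembles and that mesenchymal cells also carry. The bright probe, A_51_P392687 (chr2:13521763-13521822, mm7, + strand), was not called on any array. Its level was 6.46 on EGFP, 6.38 on mock, 6.79 on Hmga2, 6.41 on Gatad2b, 6.56 on Etv6 and 6.77 on Nfxl1. It was 6.48 on Pax6, 6.29 on Esx1, 6.38 on Crebzf, 6.19 on Pdx1, 6.28 on Sox11 and 6.46 on Zfp451. The arrays that were low for Nes overlapped with the others for Vim. The whole range was 0.60 in log2, against 1.69 for Nes. The signal ran from 69335 to 101977 units with 0 saturated spots.

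The differences of Vim from the control mean lay between -0.23 on Pdx1 and 0.37 on Hmga2, with 0.35 on Nfxl1. On the 6 arrays they were -0.23 to 0.06 as scaled here, -0.08 to 0.17 less the median shift and -0.04 to 0.28 under quantile normalization, so their sign turned with the scaling. Nestin and vimentin RNA thus changed unequally on these arrays. On the Pax6 array Nes lay -1.51 and Vim 0.06 from the control mean, and on Esx1 the values were -1.37 and -0.13.

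A second Vim probe, A_52_P287532 (chr2:13516297-13516356, mm7, + strand), lies 5.466 kb from the first and carries the name of a cDNA clone rather than of the RefSeq transcript. It was dim, with a highest signal of 29.2 units, and was well above background on EGFP, mock, Hmga2, Etv6 and Pax6 only. Its levels on these 5 arrays were -6.26, -6.11, -5.96, -5.97 and -5.08. Pax6 was highest, 1.10 in log2 or 2.15-fold above the control mean, and was called higher. The 2 Vim probes therefore disagree on Pax6, where the bright one lay 0.06 from the controls. The call on the dim probe was lost under quantile normalization, at 0.91, and with normexp, at 0.18.

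Gfap encodes glial fibrillary acidic protein, the filament of astrocytes. It was near background in these cultures. Probe A_51_P395056 (chr11:102996643-102996703, mm7, - strand) was printed 10 times, and 0 of its 117 usable spots were well above background. Probe A_52_P52303 (chr11:102999540-102999599, mm7, - strand) was not well above background on any array. Probe A_52_P540991, whose placement spans 2450 bases at chr11:102998514-103000963, was well above background on EGFP alone, at -5.38 against -6.51 on mock. No Gfap probe was called on any factor array. The control arrays themselves differed by 1.13 on this probe, which is more than a call would need.

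Other astrocyte markers were measured more easily. Their summed level was 16.5 to 17.3 on the controls and 32.2 to 38.7 on the 6 arrays where Nes was low. Apoe, the lipid carrier that astrocytes secrete, was 5.30-fold to 9.58-fold higher there. Of the other markers, S100b was called higher on all 6, at 2.40-fold to 3.77-fold, Aldoc on 5 and Aldh1l1 on 4. The gap junction gene Gja1 and the glutamine synthetase gene Glul were not called, with differences of -0.42 to -0.18 and -0.35 to -0.19. Among the defining astrocyte genes, the glutamate transporter Slc1a2 was well above background on 0 arrays and the water channel Aqp4 on 2. Regulators of the Gfap gene are given further on.

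Nefl encodes the light neurofilament protein, the core subunit on which neuronal filaments assemble. Both Nefl probes were lower on the 6 arrays that were low for Nes. For A_51_P168646 (chr14:62947487-62947546, mm7, + strand) the level was -4.63 on EGFP, -3.95 on mock, -4.31 on Hmga2, -4.62 on Gatad2b, -3.56 on Etv6 and -3.84 on Nfxl1. It was -6.39 on Esx1, -6.02 on Crebzf, -6.05 on Pdx1 and -6.45 on Sox11, and was not well above background on Pax6 and Zfp451. The gap between the low arrays and the others was 1.39. This probe was called lower on all 6 arrays.

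The sizes for this probe were 4.28-fold on Esx1, 3.31-fold on Crebzf, 3.40-fold on Pdx1 and 4.47-fold on Sox11. They were at least 5.51-fold on Pax6 and at least 5.03-fold on Zfp451, where the lowest signal well above background on the array stood for the probe. The EGFP and mock arrays differed by -0.68 on this probe. With 1 array in each group, the error of a difference from their mean was not estimated.

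The second probe, A_51_P339934 (chr14:62946259-62946319, mm7, + strand), lies 1.228 kb away, matches the RefSeq transcript, and was well above background on all 12 arrays. Its level was -3.98 on EGFP, -3.45 on mock, -3.83 on Hmga2, -4.05 on Gatad2b, -2.68 on Etv6 and -3.19 on Nfxl1. It was -5.02 on Pax6, -6.22 on Esx1, -5.74 on Crebzf, -4.48 on Pdx1, -6.11 on Sox11 and -6.47 on Zfp451. The gap between the low arrays and the others was 0.43 here, and Pdx1 was nearest to the controls. For Nefl too, the share of all probes with such a gap was not counted. Against the control mean it was 2.47-fold lower on Pax6, 5.69-fold on Esx1, 4.07-fold on Crebzf, 5.26-fold on Sox11 and 6.76-fold on Zfp451, all called. On Pdx1 it lay 1.70-fold lower and was not called.

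The 2 Nefl probes target 1 gene and are not independent. They gave different sizes on Pax6, where the differences were at most -2.46 and -1.30 in log2, and on Pdx1, where they were -1.76 and -0.76. Within slide 1, the Pax6 array lay -2.80 to -2.12 and -1.57 to -1.04 from the other 3 arrays on the first and second probe. Within slide 2, the Esx1 array lay -2.83 to -1.77 and -3.54 to -2.18 from the others. All 11 Nefl calls were lost with normexp and its offset of 50, where the differences on the 6 arrays were -0.77 to -0.62 and -1.08 to -0.40. The offset exceeds much of the signal of these probes, which ran from 11.5 to 133.4 units on the second probe.

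At the other end, Etv6 was the highest array and Nfxl1 the next highest for both Nefl probes. On Etv6 the differences from the control mean were 0.73 and 1.03. Neither was called, since the second probe lay only 0.77 above mock.

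Other neuronal markers did not all move with Nefl. The summed level of 9 neuron markers was 1.13 to 1.15 on the controls and 1.70 to 1.93 on the 6 arrays. The median difference of these 9 markers ran from -0.27 to -0.11 over the 6 arrays, so the rise of the sum was not general. Map2 was called higher on 3 of the 6, at 1.98-fold to 2.44-fold over them. Stmn2, a microtubule regulator of growing axons, and Snap25, a synaptic fusion protein, were called higher on all 6. Elavl4, an RNA-binding protein of neurons, was called lower on Pax6, at 2.23-fold, and differed by -1.16 to -0.45 over the 6 arrays. The synaptic vesicle gene Syp differed by -0.82 to -0.32 and was not called. Tubb3, a tubulin of neurons, differed by -0.63 to -0.11 and was not called. Dcx and Elavl3, markers of young neurons, were each well above background on 1 array. The part of neuron-marker RNA in the Nefl result was not tested.

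Nefm, the medium neurofilament subunit, was not measured above background. It stands in the files under its older symbol Nef3. Probe A_51_P145220 (chr14:62978814-62978873, mm7, - strand) was printed 10 times, with 0 of 112 usable spots well above background. Probe A_52_P596178 (chr14:62941787-62941846, mm7, - strand) was not well above background on any array and lies 37.027 kb from the first, so these placements fall on either side of the Nefl probes. In RefSeq (GRCm38.p6) Nefm is 5460 bases long, so these placements cannot both lie within a gene of that length. The second probe was assigned by the older symbol alone, and whether it reads Nefm is not sure. In the same assembly Nefl and Nefm lie 30.45 kb apart on chromosome 14, with 1 gene model between them, Gm19216, which is not protein coding. Whether Nefm followed its neighbour could not be read at this signal.

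Nefh encodes the heavy neurofilament subunit, whose long tail spaces filaments in thick axons. Probe A_51_P300657 (chr11:4890918-4890977, mm7, - strand) was not well above background on any array. Probe A_52_P188851, which lies 0.711 kb away at chr11:4891629-4891688, was well above background on EGFP, at -6.12, and on Pax6, at -3.85. The Pax6 signal was 68.8 units, against 13.6 on EGFP and 4.47 on mock. Nefh was called higher on Pax6, at least 5.62-fold, from this single spot. The other probe of the same transcript gave no signal above background on Pax6, so the 2 Nefh probes disagree there. With normexp the difference was 0.77 and the call was lost.

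Ina encodes internexin, the filament protein of young neurons. Its probe A_52_P366860 (chr19:46925057-46925116, mm7, + strand) was well above background on mock, at -6.45, on Hmga2, at -6.32, and on Etv6, at -6.01. It was not called on any array. All 3 values lie close to the lowest signals that were well above background, which were -7.05 to -6.46 over the 12 arrays.

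**Figure D3:**
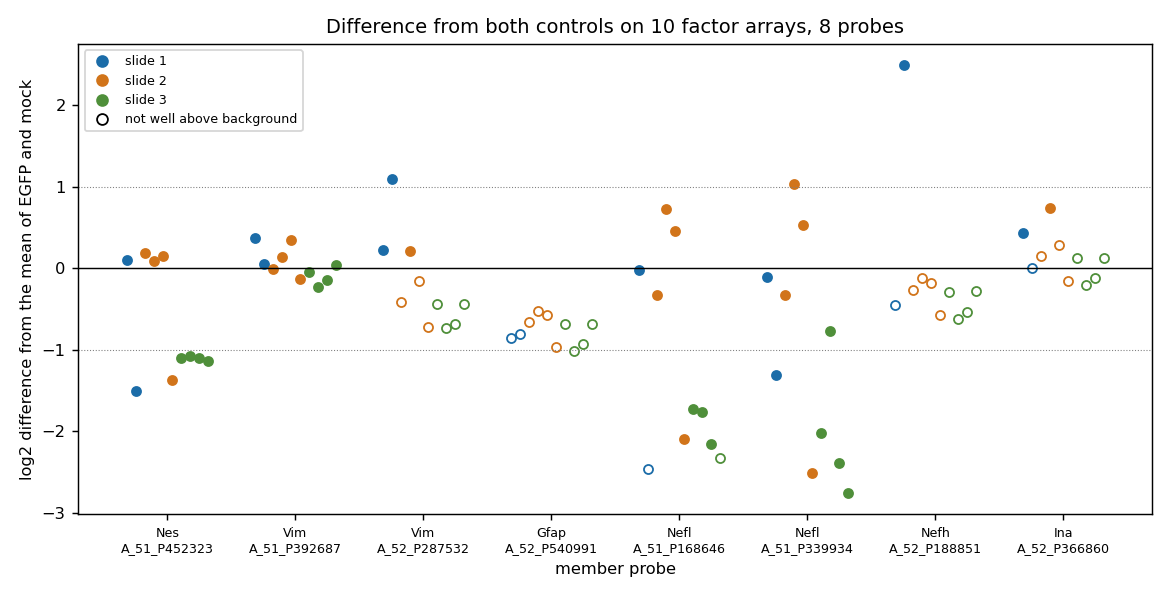
Log2 difference from the mean of the EGFP and mock arrays (y axis) for the 8 member probes that were well above background on at least 1 array (x axis), with 1 point for each of 10 factor arrays, coloured by slide. Open points mark factor arrays where the probe was not well above background and dotted lines mark 2-fold. Nes and both Nefl probes have points below the lower line, the bright Vim probe stays within -0.23 to 0.37, and the highest point, 2.49, is Nefh on Pax6.

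Over the 8 tested probes, 16 calls were lower and 2 were higher on the 10 arrays, and all 16 lower calls were of Nes or Nefl. On Pax6 3 probes were lower and 2 higher, beside 6.25% and 9.87% of all 31386 tested probes. On Esx1 3 were lower and 0 higher, beside 7.62% and 9.38%. On Crebzf 3 were lower and 0 higher, beside 6.27% and 8.69%. Pdx1 had 1 lower and 0 higher, beside 6.8% and 8.69%. Sox11 had 3 lower and 0 higher, beside 6.82% and 8.6%, and Zfp451 had 3 and 0, beside 6.1% and 8.6%. The lower calls come from 2 genes, and on Pdx1 from 1 probe. The members were chosen with earlier results of these data known, so these shares are not a result about the members.

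No member was called on the other 4 factor arrays, where few probes were called at all. The shares of all probes called lower and higher were 0.44% and 0.398% on Hmga2 and 0.892% and 0.574% on Gatad2b. They were 0.749% and 0.927% on Etv6 and 0.969% and 0.258% on Nfxl1. The median difference of the 8 probes was -0.41 on Pax6, -0.85 on Esx1, -0.56 on Crebzf, -0.75 on Pdx1, -0.81 on Sox11 and -0.56 on Zfp451. Over all tested probes the median on these arrays was -0.15 to -0.01. The member medians on Hmga2, Gatad2b, Etv6 and Nfxl1 were 0.04, -0.30, 0.18 and 0.22.

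Genes whose pattern over the 12 arrays was most like that of Nes were sought among 12412 genes, by the root mean square difference between levels centred on each gene's mean. The nearest were Hrob, at 0.06, Lrrc59, at 0.07, and Srd5a1, at 0.07, against a median of 0.63 over all genes compared. Lrrc59 was at 2.35 to 2.69 on the 6 arrays and at 3.84 to 3.98 on the others. For the second Nefl probe the nearest were Evpl, at 0.44, Ccdc88c, at 0.48, and Podxl, at 0.49, against a median of 1.19. The distances are not comparable between the probes of Nes and Nefl. The Nefl probe is 1 dim spot with a range of 3.79 in log2, while Nes has 10 spots and a range of 1.69.

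Other members of the intermediate filament family lay on both sides of the controls on the 6 arrays. Of 13 such genes tested, desmin (Des, the filament of muscle), peripherin (Prph, of peripheral neurons) and phakinin (Bfsp2, of the lens) were higher on the arrays where Nes and Nefl were low. Des was at -5.04 on EGFP and -5.47 on mock, and between -3.90 and -3.53 on the 6 arrays, 2.56-fold to 3.31-fold above the control mean, called on all 6. Bfsp2 was 3.93-fold to 5.96-fold higher and was called on all 6. Prph was 2.39-fold to 3.67-fold higher and was called on 5, with Pax6 the exception. All 3 genes lie far below the 75th percentile even there.

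The counts on 1 probe for each gene stand beside the shares over 20920 genes. In this list 3 genes were higher and 0 lower on Pax6, beside 10.7% and 6.41% of all genes. The third of these was Synm, named after its values were seen, which was at least 2.41-fold higher. Esx1 had 3 higher and 2 lower, beside 10.3% and 7.42%. Crebzf had 3 and 0 beside 9.8% and 6.3%, Pdx1 3 and 0 beside 9.84% and 6.64%, Sox11 3 and 0 beside 9.73% and 6.94%, and Zfp451 3 and 0 beside 9.58% and 6.3%. The list's median difference on these arrays ran from -0.23 to 0.25, and that of all genes from -0.15 to -0.02. The summed level of 4 muscle markers was 16.7 to 17.9 on the controls and 2.96 to 4.33 on the 6 arrays, where Tnnt2 was called lower on all 6 and Acta1 higher on 5. Their part in the Des result was not tested.

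Both lower genes on Esx1 were lamins, which line the inside of the nuclear envelope. Lmnb1 was 5.24-fold lower there, at 1.08 against 3.43 on EGFP and 3.51 on mock, and Lmnb2 was 3.07-fold lower. Lmnb1 on Pax6 and on all of slide 3 lay -1.01 to -0.74 from the control mean and was not called. The lamins lay below the controls on all 6 arrays where Nes was low, with differences of -2.39 to -0.74 for Lmnb1, -1.62 to -0.80 for Lmnb2 and -0.79 to -0.62 for Lmna, which was named after its values were seen and was not called. On Hmga2, Gatad2b, Etv6 and Nfxl1 they lay at -0.05 to 0.20, -0.48 to 0.18 and 0.03 to 0.20.

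On Etv6 the epithelial keratins Krt8 and Krt18, which pair with each other, were higher. Krt8 was 1.65 above the control mean in log2, at -2.70 against -4.45 on EGFP and -4.24 on mock. Krt18, named after its values were seen, was 1.10 above it, at 3.97. These 2 of 13 genes stand beside 1.03% of all genes called higher and 0.837% called lower on Etv6, where 0 of the list were lower. Epithelial markers lay higher on Etv6 as well, with a summed level of 0.170 against 0.0924 to 0.0969 on the controls. Of the 3, the junction gene Cldn6 was called higher there, at 1.27 above the control mean, while Epcam and Cdh1, which encode adhesion proteins, lay 0.89 and 0.45 above it. The sum was higher on the 6 arrays where Nes was low too, at 0.128 to 0.258. Cdh1 was called higher on all 6 and Cldn6 on Crebzf, while Krt8 and Krt18 were called on none of them. The part of the epithelial markers in the keratin result was not tested. No gene of the list was called on Hmga2, Gatad2b or Nfxl1. There the shares called higher and lower over all genes were 0.435% and 0.578% on Hmga2, 0.645% and 0.999% on Gatad2b, and 0.292% and 1.22% on Nfxl1.

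**Figure D4:**
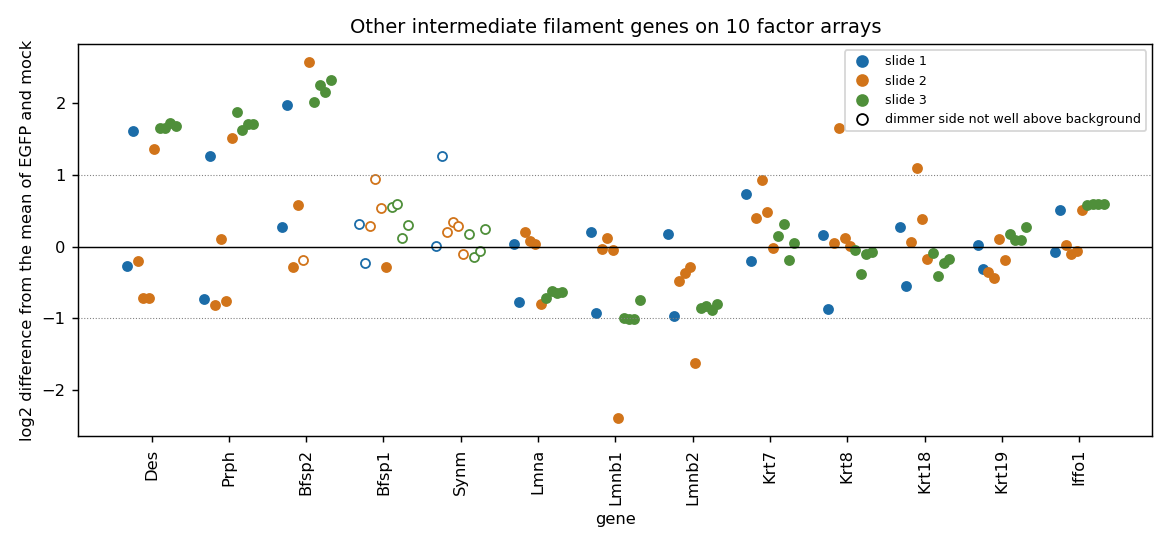
Log2 difference from the mean of the EGFP and mock arrays (y axis) for 13 other intermediate filament genes (x axis), with 1 point for each of 10 factor arrays, coloured by slide. Open points mark values whose dimmer side was not well above background and dotted lines mark 2-fold. Des, Prph and Bfsp2 lie at 1.26 or more on 6 arrays, Lmnb1 reaches -2.39 on Esx1, and Krt8 reaches 1.65 on Etv6.

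Linkers that tie filaments to other structures, chaperones and turnover factors were taken from a list of 13 genes, of which 12 were tested. The plakins envoplakin (Evpl) and periplakin (Ppl), which bind filaments to junctions, were lower with Nes and Nefl. Evpl was called lower on Esx1, Crebzf, Pdx1, Sox11 and Zfp451 and was 2.34-fold to 4.64-fold lower over the 6 arrays. Ppl was called on the same 5 arrays, at 2.08-fold to 2.75-fold lower over the 6, and was called higher on Etv6, by 1.21 in log2. Plectin (Plec), which ties filaments to junctions and to other cytoskeletal fibres, was 2.80-fold lower on Esx1.

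Kif5a, the kinesin motor that carries neurofilaments along axons, moved the other way from Nefl. It was called higher on all 6 arrays, by 2.55-fold to 3.19-fold. The list thus had 1 gene higher on each of the 6, and 0 lower on Pax6, 3 on Esx1 and 2 on Zfp451. On Etv6 it had 1 higher and 0 lower, and on Hmga2, Gatad2b and Nfxl1 it had no call. Over all genes, 9.58% to 10.7% were called higher and 6.3% to 7.42% lower on the 6 arrays. The 1 gene of 12 higher is thus near the background, while the lower counts on Esx1 and Zfp451 are larger shares. The list was chosen with earlier results of these data known, so these shares are not a result about it. On Etv6, 1.03% of all genes were called higher and 0.837% lower. On Hmga2, Gatad2b and Nfxl1 the shares were 0.292% to 0.645% higher and 0.578% to 1.22% lower.

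Another list held 12 genes, for kinases known to phosphorylate filament proteins and for Cdk5r1, an activator of the kinase Cdk5. Plk1, a mitotic kinase, was called lower on all 6 arrays, by 2.31-fold to 3.18-fold. Its level was 5.04 on EGFP and 5.14 on mock and 3.42 to 3.88 on the 6. Aurkb, another mitotic kinase, was called lower on Esx1. None of the 12 was called higher on any array, and none was called on Hmga2, Gatad2b, Etv6 or Nfxl1. The list thus had 2 of 12 lower on Esx1 and 1 of 12 on each of the other 5, beside 6.3% to 7.42% of all genes, which for 1 of 12 is near the background. The share of all genes called higher on the 6 arrays was 9.58% to 10.7%. On Hmga2, Gatad2b, Etv6 and Nfxl1 the shares of all genes were 0.292% to 1.03% higher and 0.578% to 1.22% lower.

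Regulators known to act on the Gfap or Nes gene were drawn from a list of 13, of which 12 were tested. Stat3, the cytokine-activated factor that binds the Gfap promoter in astrocytes, was higher on Pax6 and Esx1, with differences of 1.08 and 1.19. Lifr, a receptor subunit upstream of Stat3, was called higher on Esx1, Pdx1 and Zfp451 and was 1.91-fold to 2.38-fold higher over the 6 arrays. None of the 12 was called lower on any array, and none was called on Crebzf, Sox11, Hmga2, Gatad2b, Etv6 or Nfxl1. The list thus had 2 of 12 higher on Esx1 and 1 of 12 on Pax6, Pdx1 and Zfp451, beside 9.58% to 10.7% of all genes called higher and 6.3% to 7.42% called lower on these arrays, so 1 of 12 is near the background. The shares of all genes on Crebzf and Sox11 lay within the same ranges. On Hmga2, Gatad2b, Etv6 and Nfxl1 they were 0.292% to 1.03% higher and 0.578% to 1.22% lower. Gfap itself was not well above background on any of the arrays where Stat3 or Lifr was called.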

How the data were processed

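RNA of 12 cultures, labelled from 0.25 µg, was hybridised to 1 array each. Per the file headers, the authors' files come from Agilent Feature Extraction 10.7.3.1 and hold the processed intensity of each spot, background-subtracted on a linear scale, with probe positions in mm7. The deposited value table equals that column on all 45018 features. The sources used here give no later normalization.

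Spots that the software marked as outliers were dropped, and the mean was taken over repeated spots (41174 probes, 43379 spots). Log2 intensities were set against each array's 75th percentile and values below the lowest signal well above background raised to it. A probe was tested when well above background on at least 1 array. A higher call needed the factor's array, and a lower call both controls, well above background. Probes were named by RefSeq accession (23082), symbol (6582), synonym (3073) or as the file has them (8437). Lists used the probe with the highest mean for each gene.

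Members and lists were chosen with earlier results of these data known. Named are all members, called list genes (at most 4 in each direction of a list) and the 3 nearest patterns; marker genes and others named beyond this were chosen after their values were seen. For 1 list of genes, some counts are not reported here. A lower bound on a fold uses the raised value. The number of arrays limits the precision. Alternatives were quantile normalization, normexp (offset 50), no floor, stricter filters and folds, centring within slides and other references. The call rule was tested on simulated data. Python 3.11.15, numpy 2.4.6, pandas 2.3.3, R 4.3.3 and limma 3.58.1 were used.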

Additional observations from a re-analysis of the deposited data

How the results depend on the processing

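The 16 lower and 2 higher member calls became 13 and 1 under quantile normalization, 3 and 0 with normexp, 20 and 2 with no floor, and 10 and 0 with only probes well above background on all 12 arrays. They became 6 and 2 with values centred within slides, 8 and 1 at 3-fold, and 20 and 3 at 1.5-fold. Against EGFP alone they were 26 and 5, against mock alone 18 and 2, and with the deposited values they were 16 and 2. With the median over the 9 remaining factor arrays in place of the controls they were 4 and 13, since most of those arrays are themselves low for Nes and Nefl.

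Nes stayed lower on the arrays of Pax6, Esx1 and slide 3 under quantile normalization (-1.30 to -0.89) and normexp (-1.47 to -1.07). Centring within slides removes what the 4 arrays of slide 3 share, so it cannot show whether they stayed lower: Nes was at -0.38 to -0.33 there, with 3 calls lost, and the Nefl probe A_51_P339934 on Pdx1 turned to 0.87. On Esx1 centred Nes was at -1.49. Pax6 shares slide 1 with both controls, so centring cannot change its difference, which stayed at -1.51. Against that median of 9 factor arrays, among Nes and Nefl, the sign turned for Nes on Pdx1 (0.017), Nefl A_51_P168646 on Hmga2 (1.74), Gatad2b (1.43) and Crebzf (0.038), and for A_51_P339934 on Hmga2 (1.19), Gatad2b (0.97) and Pdx1 (0.54). Signal close to background limits Gfap, Nefm, Nefh, Ina and the second Vim probe. No paired analysis was possible because each group has 1 array and the replicate number 1 names no pair.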
